A study of Mus musculus with 9 samples.

Results

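The interferon response and antigen presentation genes were 33 genes taken by gene name from the authors' 2 full comparison tables of mouse embryonic cortex. All 33 were listed, among 39255 genes in the deletion table and 40366 in the knock-in table. By role they were 4 RNA sensors with their ligase, 4 transcription factors, 2 genes of the ISG15 system, 11 antiviral effectors, 6 other interferon-induced genes and 6 genes of class I antigen presentation.

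RNA of the cortex was sequenced at E16.5 from mice that carried different alleles of HAR1984, a human accelerated region, meaning a conserved stretch of DNA that changed unusually fast on the human lineage. The control genotype, Mm/Mm, was homozygous for the mouse allele. The knock-in genotype, Hs/Mm, carried the human allele opposite the mouse one, and the deletion genotype, del/del, was homozygous for loss of the element. There were 3 libraries per genotype, described as biological replicates, and all 9 carried the same batch label. The tissue label of deletion replicate 3 reads E16.6, and the labels gave neither the sex of the embryos nor whether each library was 1 embryo. HAR1984 is not a gene, so the gene tables hold no check of the deletion itself. Eif2s3y, a gene of the Y chromosome, had a log2 fold change of -27.20 in the knock-in (SE 3.91) and -1.26 in the deletion (SE 3.73). Its adjusted p was 3.58e-08 in the knock-in and 0.983 in the deletion, by the Wald test with Benjamini-Hochberg adjustment. Xist, of the X chromosome, gave 1.46 in the knock-in (SE 2.44) and 1.41 in the deletion (SE 2.44). The part of embryo sex in the results below was not tested.

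Type I interferons signal through a cell surface receptor and Janus kinases to a transcription factor complex that holds STAT2 and IRF9 and binds the interferon-stimulated response element (ISRE) in promoters. Interferon gamma acts through another promoter element, the gamma-activated site (GAS). The induced genes include effectors that block viral entry, translation or release, and the machinery that cuts cytosolic proteins into peptides and shows them on class I molecules. In brain, microglia, border macrophages and vascular cells are known to respond readily to interferon, and many neurons keep class I molecules at a low level.

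None of the 33 genes passed the test in either genotype. The test was the two-sided Wald test of the deposited statistic with Benjamini-Hochberg adjustment over all tested genes, and the threshold was an adjusted p of 0.05. In the deletion 0 of the 27 members that had an adjusted p were called, where 0.976% of the 18952 genes tested were called. In the knock-in 0 of 30 were called, where 0.137% of 21222 genes were called. In the difference of deletion minus knock-in 0 of 27 were called, beside 0.00528% of 18928 genes.

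Most of the estimates nevertheless lay above the control. In the deletion 23 of the 27 tested members were above 0, beside 48.3% of all genes tested, and the median log2 fold change of the tested members was 0.15 beside -0.01 over all genes. In the knock-in 27 of 30 were above 0, beside 51% of all genes, and the median was 0.31 beside 0.00. Over all 33 listed members, with low-level genes included, 27 (deletion) and 30 (knock-in) lay above the control. Both comparisons use the same 3 control libraries, so their values are not independent of each other. Some other lists leaned up in the knock-in too, with 12 of 14 constitutive proteasome subunits and 9 of 9 radial glia markers above 0. For 6 of 10 interferon receptors and kinases and 5 of 8 neuron markers the knock-in estimate was above 0. These counts carry no test.

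At an unadjusted p under 0.05, 5 members were higher in the deletion, namely Ifitm1, Ifit3, Bst2, Ifitm3 and Ifi27, where 5.19% of all genes tested were higher at that level and 4.31% lower. In the knock-in 2 members, Ifit3 and Bst2, were higher at an unadjusted p under 0.05, where 3.53% of all genes were higher and 3.39% lower. In both comparisons 0 members were lower at that level.

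The level of each member bounds what could be seen. With its own standard error, a tested member needed a fold change of between 1.32 (Ifit2) and 5.02 (Rsad2) to be called in the deletion, and between 1.38 and 6.13 for the same genes in the knock-in. Over the 33 members, including those with no adjusted p, the median fold needed was 2.11 in deletion cortex and 2.33 in knock-in cortex. The upper end of the 95% interval lay under a 1.5-fold rise for 8 members in the deletion and for 8 in the knock-in. For 21 members in deletion cortex and 18 in knock-in cortex it lay under a 2-fold rise.

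**Figure D1:**
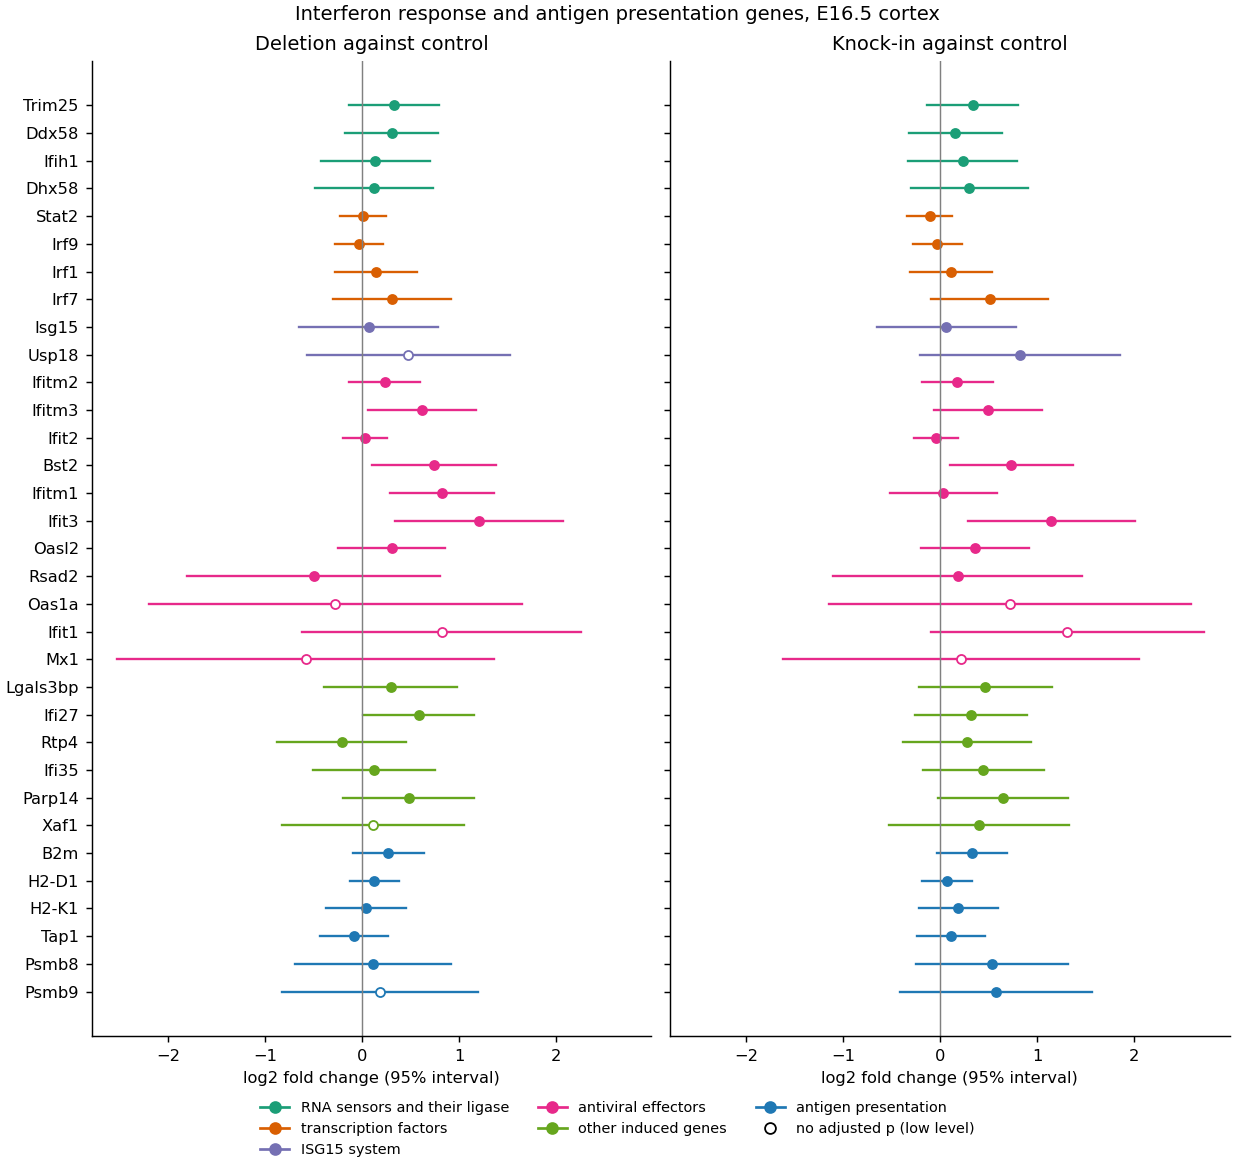
Log2 fold change of each of the 33 genes for each altered genotype against control, with bars for the 95% interval of the authors' standard error. Open points are genes with no deposited adjusted p; 27 points lie above 0 in deletion cortex and 30 in knock-in cortex, and 5 and 2 intervals lie wholly above 0.

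Values per library cannot be given. The deposited columns that carry library names and the heading FPKM hold the gene's mean normalised count multiplied by random numbers, as described with the processing, and not a measurement of any library. Levels below are therefore the authors' mean normalised read count over the libraries of their fit, called the mean count, and comparisons between genes use that value per kilobase of annotated exon. The spread between libraries enters only through the deposited standard error (SE). The 33 genes together had a mean count of 7099, which was 0.0160% of the sum over all genes. How deeply each library was sequenced is unknown.

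Per kilobase of exon, B2m had the highest level of the 33 genes with 1313, and Mx1 the lowest with 1.01, a ratio of 1305. Ifitm2 (795), H2-D1 (231), Ifitm3 (227) and Stat2 (197) came next after B2m. The other end held Xaf1 (4.83), Oas1a (4.72), Psmb9 (3.82) and Ifit1 (3.51). Roles were mixed in this order. Of the antiviral effectors, Ifitm2 and Ifitm3 stood near the top, and Ifit2 was 6th (129) and Ifitm1 11th (85.7). Mx1, Oas1a and Ifit1, of the same role, stood near the bottom. Whether neighbours in this order differ cannot be told, since no level per library was usable.

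**Figure D2:**
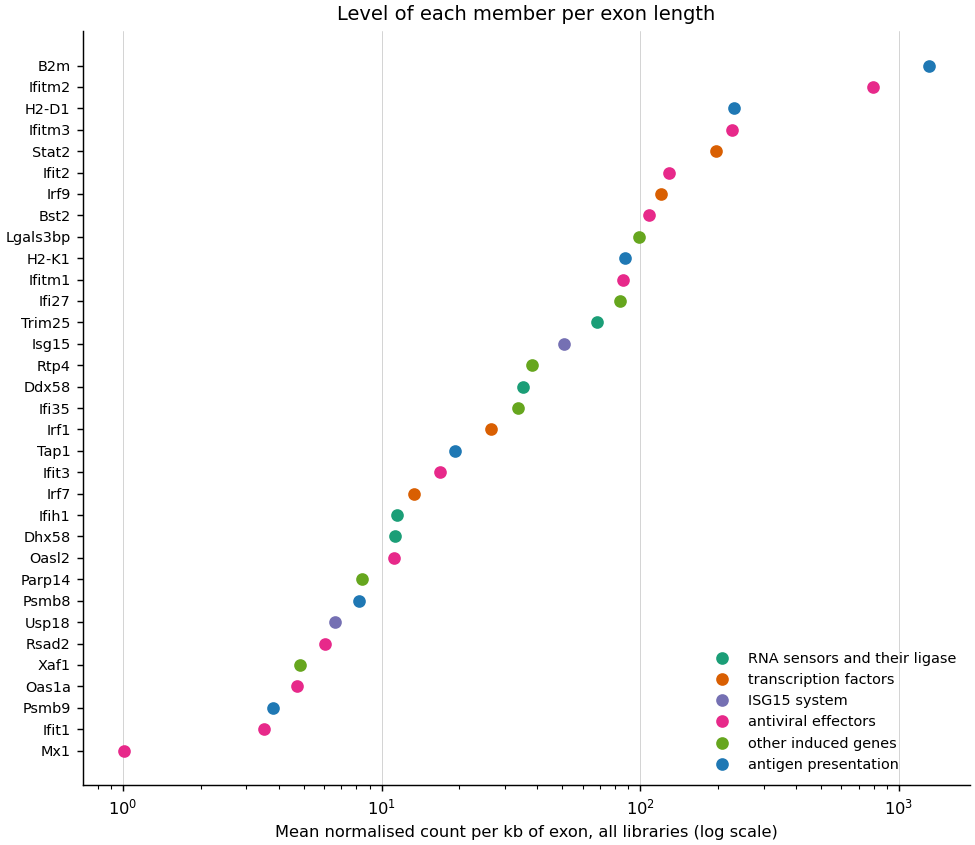
Mean normalised count per kilobase of annotated exon for each of the 33 genes, on a log scale and coloured by role. B2m stands highest at 1313 and Mx1 lowest at 1.01.

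The RNA sensors were present at low to moderate level, and none passed the test. Ddx58, which encodes RIG-I and detects RNA with unprocessed ends, had a mean count of 248 and log2 fold changes of 0.30 (SE 0.24) in the deletion and 0.15 (SE 0.24) in the knock-in. Ifih1, which encodes MDA5 and detects long double-stranded RNA, had a mean count of 94.0 and log2 fold changes of 0.14 (SE 0.29) and 0.23 (SE 0.29). Dhx58, the related regulator LGP2, had a mean count of 37.0 with 0.12 (SE 0.31) and 0.30 (SE 0.31). Trim25, a ubiquitin ligase that acts on RIG-I, had a mean count of 392 with 0.33 (SE 0.24) and 0.34 (SE 0.24). All 4 genes lay above the control in both genotypes, with each estimate less than 1.5 SE from 0.

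Of the transcription factors of the response, Stat2 and Irf9 gave narrow estimates and Irf1 and Irf7 wider ones. Stat2 had a mean count of 1168, and its log2 fold change was 0.01 in the deletion (95% interval -0.22 to 0.24) and -0.11 in the knock-in (-0.34 to 0.12). Irf9, which joins STAT2 at the ISRE, had a mean count of 651 and gave -0.03 in both genotypes (-0.28 to 0.22 in each). For these 2 genes a change of 1.5-fold in either direction, 0.58 on the log2 scale, lay outside the interval. Irf1, which acts in the response to interferon gamma and on class I genes, had a mean count of 105 and gave 0.15 (SE 0.21) and 0.11 (SE 0.22). Irf7, which amplifies type I interferon production and is itself strongly induced, had a mean count of 50.2 and gave 0.31 (SE 0.31) and 0.51 (SE 0.31). The intervals of Irf1 and Irf7 held 0 in both genotypes.

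In the ISG15 system, Isg15 encodes a ubiquitin-like protein that is attached to other proteins after interferon. It had a mean count of 38.4, and its log2 fold change was 0.07 (SE 0.37) in the deletion and 0.06 (SE 0.37) in the knock-in. Usp18, which removes ISG15 and dampens signalling at the receptor, had a mean count of 18.5, with 0.48 (SE 0.53) in the deletion, where it had no adjusted p, and 0.82 (SE 0.53) in the knock-in. Isg15 is among the genes most readily induced by interferon, and it stayed within 0.10 of the control in log2 terms in both genotypes, with intervals from about -0.66 to 0.79.

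The antiviral effectors held the largest estimates. Ifit3, which supports the RNA-binding IFIT proteins, had a mean count of 29.3 and a log2 fold change of 1.21 in the deletion (SE 0.44, unadjusted p = 0.00615, adjusted p = 0.208 by the Wald test with Benjamini-Hochberg adjustment). In the knock-in it was 1.14 (SE 0.44, unadjusted p = 0.00944, adjusted p = 0.465 by the same test). This was the largest log2 fold change among the tested members in both genotypes, at 2.31-fold and 2.21-fold. Of its 50-base exon words, 51.2% were also found in Ifit3b, a near-identical neighbour, so reads of the pair may have been split or lost in counting. Ifit3b itself had a mean count of 15.3. It gave 0.39 (SE 0.69) in the deletion, with no adjusted p, and 0.59 (SE 0.69) in the knock-in, where it was not called.

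The authors' deposited table gives Ifit3 in the knock-in other values than its own statistic and SE do. It lists a log2 fold change of 1.44, a p of 9.44e-06 and an adjusted p of 4.46e-04, and the authors' shorter list carries the gene with the same values. The deposited p is 1000 times smaller than the p of the deposited statistic. For Bst2 in the knock-in the authors' deposited table likewise lists a p of 2.42e-05 and an adjusted p of 5.86e-04, where its statistic gives a p of 0.0242. The same ratio held for 923 genes of the authors' deposited table, which were all tested genes with a recomputed p up to 0.0268. With the authors' deposited values, 2 members, Ifit3 and Bst2, would be called in the knock-in, among 930 genes.

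The other IFIT genes lie beside Ifit3 on chromosome 19, and their difference from Ifit3 was not tested. Ifit2, which takes part in blocking translation of viral RNA, lies 7.11 kb before Ifit3, had a mean count of 507 and gave 0.03 in the deletion (95% interval -0.20 to 0.26) and -0.05 in the knock-in (-0.28 to 0.18). Ifit1, which binds viral RNA that lacks the host's cap methylation, lies 52.1 kb after Ifit3 and had a mean count of 9.34. It gave 0.82 (SE 0.73) and 1.31 (SE 0.72) and had no adjusted p in either table. The annotation used here (GENCODE, GRCm38) places Ifit2 at chr19:34550694-34576419, Ifit3 at chr19:34583531-34588731 and Ifit1 at chr19:34640871-34650009, all on the plus strand.

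Bst2 encodes tetherin, which holds budding virus at the cell surface. It had a mean count of 97.3, and its log2 fold change was 0.74 in the deletion (SE 0.32, unadjusted p = 0.0220, adjusted p = 0.382, Wald test with Benjamini-Hochberg adjustment) and 0.73 in the knock-in (SE 0.32, unadjusted p = 0.0242, adjusted p = 0.605). None of its 50-base exon words were found in another gene.

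Among the IFITM genes, whose membrane proteins hinder the fusion of virus with endosomes, Ifitm1 gave the smallest p of any member. Its mean count was 93.7, and its log2 fold change was 0.83 in the deletion (SE 0.27, unadjusted p = 0.00250, adjusted p = 0.126, Wald test with Benjamini-Hochberg adjustment), with 1.10% of genes having a higher statistic. In the knock-in it was 0.03 (SE 0.28, adjusted p = 0.993). The difference of deletion minus knock-in was 0.80 for Ifitm1 (unadjusted p = 0.0422, adjusted p = 0.9998 over 18928 genes by the normal test of the difference), and it was not called. Ifitm1 is also known outside the interferon response, as a surface protein of early germ cells and mesoderm.

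Ifitm3 had a mean count of 154 and gave 0.61 in the deletion (SE 0.28, unadjusted p = 0.0305, adjusted p = 0.433) and 0.49 in the knock-in (SE 0.28, adjusted p = 0.773), by the same Wald test. Ifitm2 had a mean count of 521 and gave 0.23 (SE 0.19) and 0.18 (SE 0.19). In Ifitm2 48.5% of exon words were shared with other gene models, Gm45717 and Gm11951, so its level is uncertain. The 3 genes lie together on chromosome 7, with 11.2 kb between Ifitm2 and Ifitm1 and 39.8 kb between Ifitm1 and Ifitm3.

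The remaining effectors were low and gave wide intervals. Oasl2, of the oligoadenylate synthetase-like family, had a mean count of 71.5 and gave 0.30 (SE 0.28) in the deletion and 0.36 (SE 0.28) in the knock-in. Oas1a, an oligoadenylate synthetase of the RNase L pathway, had a mean count of 8.90, no adjusted p, and estimates of -0.27 (SE 0.98) and 0.72 (SE 0.95). It shared 57.6% of its exon words with Oas1g. Rsad2, which encodes viperin and makes a chain-terminating nucleotide, had a mean count of 26.2 and gave -0.50 (SE 0.67) and 0.18 (SE 0.66). Mx1, a GTPase that blocks influenza virus, had a mean count of 3.81, no adjusted p, and estimates of -0.58 (SE 0.99) and 0.21 (SE 0.93). No direction can be read for these 4 genes, whose intervals all held 0.

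**Figure D3:**
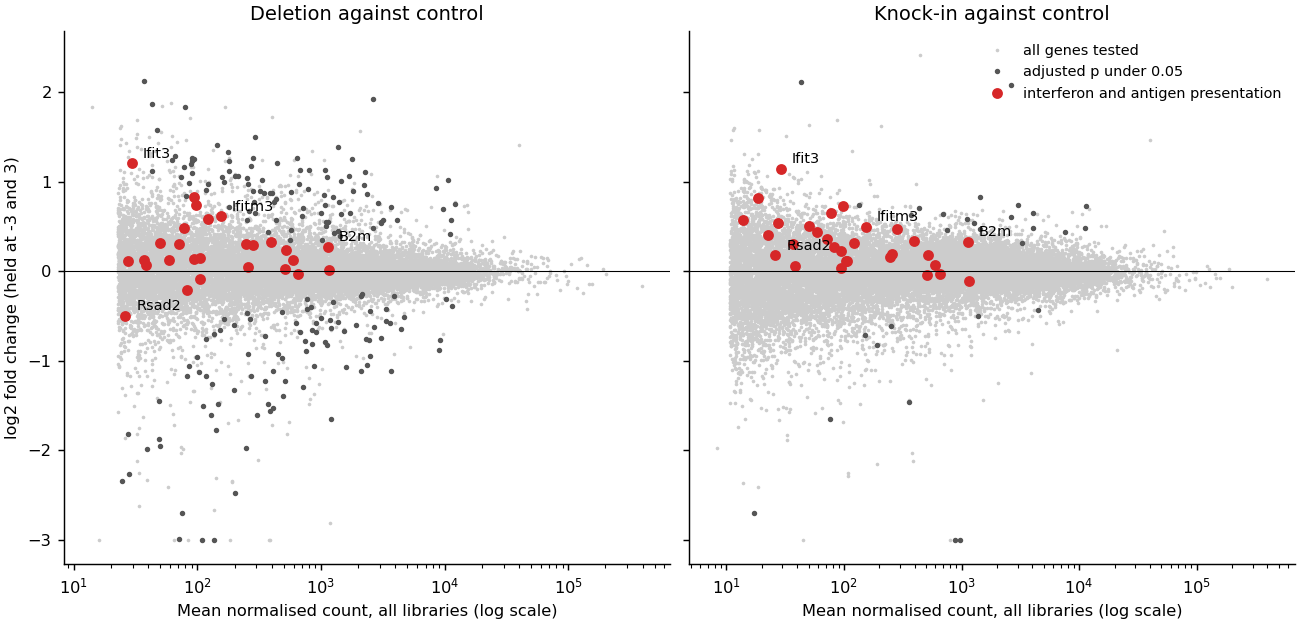
Log2 fold change against the mean normalised count (log scale) for all genes tested in each comparison, with the genes past the threshold in dark grey and the tested members of the 33 in red. The red points lie mostly above 0, with Ifit3 highest, and none is a called gene.

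Promoter sequence of the effectors is shown here because ISRE and GAS are the elements through which interferon is known to act. RefSeq promoters (GRCm38.p6, 250 bases before to 50 after each start) were found for 27 of the 33 members, and for 4 of them there were 2. No promoter was matched for Parp14, Usp18, Rtp4, Ifi27, Mx1 and Dhx58. ISRE was searched as GAAA, any 2 bases, GAAA, and GAS as TTCNNNGAA, on both strands. Each stretch below is written on the strand of its gene, 5′ to 3′, with the matched letters in capitals, and an ISRE on the other strand reads as TTTC, any 2 bases, TTTC. Where matches overlap, 1 of them is capitalised.

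The Ifit3 stretches span chr19:34583358-34583397 and chr19:34583392-34583431, and that of Ifit1 spans chr19:34640789-34640828, all on the plus strand. Ifit1 holds another ISRE match, at -104 to -95 from the start, whose capitals are not shown.
Ifit3 first ISRE: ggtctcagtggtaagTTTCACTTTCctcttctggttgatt
Ifit3 second ISRE: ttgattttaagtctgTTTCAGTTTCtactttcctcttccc
Ifit1 ISRE: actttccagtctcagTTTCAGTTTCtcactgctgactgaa
The Bst2 stretch spans chr8:71537572-71537611, that of Ifitm2 spans chr7:140955983-140956022 and that of Isg15 spans chr4:156200866-156200905, all on the minus strand.
Bst2 ISRE: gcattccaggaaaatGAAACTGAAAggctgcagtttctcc
Ifitm2 ISRE: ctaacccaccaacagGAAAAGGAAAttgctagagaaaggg
Isg15 ISRE: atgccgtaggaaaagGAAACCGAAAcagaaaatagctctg
The B2m stretch spans chr2:122147533-122147572 and the GAS stretch of Irf1 spans chr11:53769909-53769947, both on the plus strand.
B2m ISRE: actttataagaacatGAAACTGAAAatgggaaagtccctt
Irf1 GAS: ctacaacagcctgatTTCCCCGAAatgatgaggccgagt

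Of the 27 members with a promoter, 12 (44.4%) held the ISRE letters, beside 3.99% of the 27025 genes with a promoter and 3.44% of the 32851 promoters. Besides the genes shown, these were Ifih1, Ddx58, Oas1a, Ifitm3, Stat2 and Rsad2. The GAS letters were in 7 of the 27 (25.9%), beside 9.55% of genes. These 7 were Oas1a, Ifitm3, Bst2, Irf1, Ifi35, Psmb8 and Ifit2. A GAS match overlaps an ISRE match in Bst2 and in Ifitm3, and neighbouring ISRE matches overlap in Bst2, in Oas1a and among the 3 of Isg15.

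The letters were found in members with high and low estimates alike. Ifit3 and Bst2, with the largest estimates among tested members of the knock-in other than Usp18, each held 2 ISRE matches, while Isg15 held 3 and gave 0.06 there. The window of Ifitm1, which had the smallest p in the deletion, held neither set of letters, which says nothing of other DNA around it. A match of letters is not a measured binding site.

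**Figure D4:**
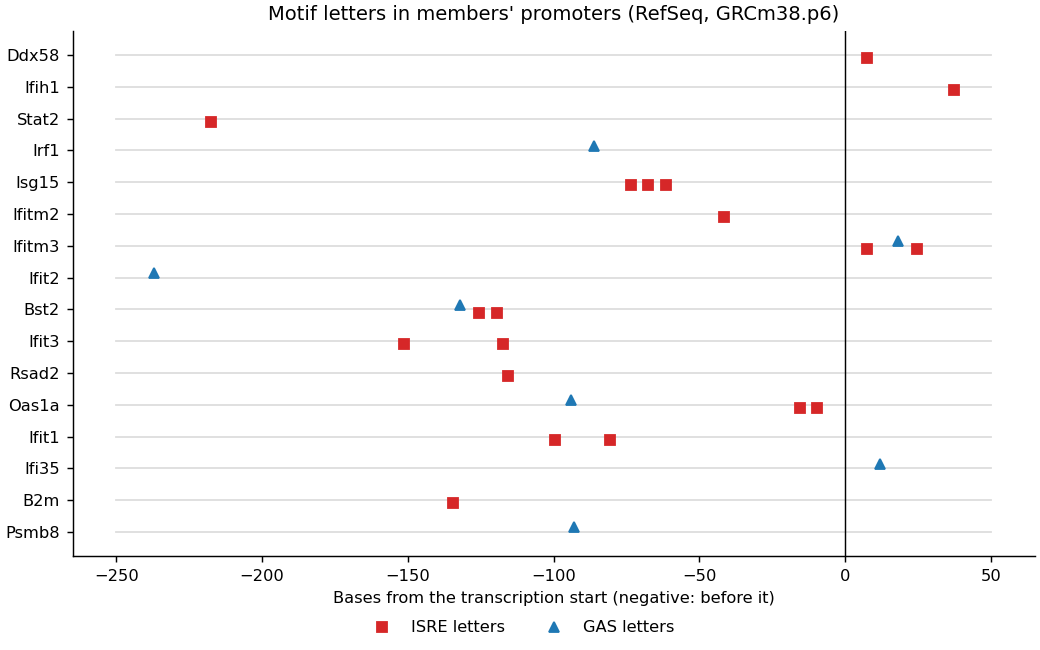
Position of the ISRE and GAS letters relative to the transcription start in RefSeq promoters of the members that hold either. ISRE letters were in 12 and GAS letters in 7 of the 27 members with a promoter.

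The other interferon-induced members were mostly above the control and none passed the test. Ifi27, an interferon-inducible membrane protein, had a mean count of 123 and gave 0.58 in the deletion (SE 0.29, unadjusted p = 0.0463, adjusted p = 0.510, Wald test with Benjamini-Hochberg adjustment) and 0.31 in the knock-in (SE 0.29, adjusted p = 0.858). Parp14, an ADP-ribosyltransferase, had a mean count of 78.3 and gave 0.48 (SE 0.34) and 0.64 (SE 0.34). Lgals3bp, a secreted glycoprotein that binds galectins, had a mean count of 281 and gave 0.30 (SE 0.35) and 0.47 (SE 0.35). Ifi27 was the only one of these 6 genes with an interval above 0, in the deletion.

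Ifi35 had a mean count of 58.5 and gave 0.13 (SE 0.32) in the deletion and 0.44 (SE 0.32) in the knock-in. Xaf1, which counters an inhibitor of apoptosis, had a mean count of 22.6 and gave 0.11 (SE 0.48), with no adjusted p, and 0.40 (SE 0.47). Rtp4, a chaperone of cell surface receptors, had a mean count of 81.7 and gave -0.21 (SE 0.34) and 0.27 (SE 0.34). The estimates of these 3 genes lay less than 1.5 SE from 0 in both genotypes.

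Class I antigen presentation was detected throughout, with no member past the test. B2m, the light chain that every classical class I molecule needs at the surface, had a mean count of 1129 and gave 0.27 in the deletion (SE 0.19, adjusted p = 0.723) and 0.33 in the knock-in (SE 0.19, adjusted p = 0.769), by the Wald test with Benjamini-Hochberg adjustment. The heavy chain H2-K1 had a mean count of 257 and gave 0.04 (SE 0.21) and 0.19 (SE 0.21). The heavy chain H2-D1 had a mean count of 596 and gave 0.13 (95% interval -0.13 to 0.39) and 0.07 (-0.19 to 0.32). For H2-D1 a rise of 1.5-fold lay outside the interval in both genotypes. H2-D1 shared 12.8% and H2-K1 9.63% of exon words with other genes, in part with other class I genes, so their counts may be mixed.

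Tap1, a subunit of the transporter that brings peptides into the endoplasmic reticulum, had a mean count of 105 and gave -0.08 (SE 0.18) and 0.11 (SE 0.18). The immunoproteasome subunits Psmb8 and Psmb9 replace constitutive subunits after interferon. Psmb8 had a mean count of 27.6 and gave 0.11 (SE 0.41) and 0.53 (SE 0.40). Psmb9 had a mean count of 14.0 and gave 0.18 (SE 0.52), with no adjusted p, and 0.57 (SE 0.50). The annotated 5′ ends of Psmb9 and Tap1, which lie on opposite strands, overlap by 212 bases. Since the use of strand in counting is not stated, reads there cannot be assigned to either gene.

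Genes of the same pathway outside the 33 gave the following. Of the 10 interferon receptors and kinases 0 passed the test in either genotype, and their median log2 fold change was 0.01 in deletion cortex and 0.02 in knock-in cortex. The values ran from Ifnlr1, a receptor chain for interferon lambda (-0.28 and -0.32), to Ifnar2, a receptor chain for type I interferon, in the deletion (0.14) and Il10rb in the knock-in (0.18). Of the interferon genes themselves only Ifnk and Ifnz of 11 were listed, with mean counts of 0.427 and 1.55, and neither had an adjusted p. Of 9 feedback inhibitors 0 passed. Their extremes were Ptpn6, a phosphatase of blood cells, at 0.66 and 0.37, Ptpn2 at -0.15 in the deletion and Trim24 at -0.12 in the knock-in.

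Of 19 tested genes of nucleic acid sensing 0 passed, with medians of 0.21 in deletion cortex and 0.17 in knock-in cortex. The highest were Tlr9, an endosomal DNA receptor, at 0.91 in the deletion (SE 0.39) and Ifi204, a DNA sensor, at 1.05 in the knock-in (SE 0.47), and the lowest were Rnaseh2b at -0.17 and Adar at -0.06. Of 45 other interferon-induced genes, 29 and 37 were tested, with medians of 0.20 and 0.38, and 23 and 33 lay above the control. Slfn2, a Schlafen gene of lymphoid and myeloid cells, rose in the deletion (log2 fold change 1.12, SE 0.32, adjusted p = 0.0469 by the Wald test with Benjamini-Hochberg adjustment) and gave 1.03 in the knock-in (SE 0.32, adjusted p = 0.238). It was the only gene of these pathway lists past the threshold in either genotype, and its call was lost with adjustment over every gene with a p (adjusted p = 0.0954, same test), at a threshold of 0.01 and with a mean count of at least 50. The lowest of that list were Ifi203 at -0.36 in the deletion and Cmpk2 at -0.28 in the knock-in.

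Other genes of class I presentation, of which 15 and 16 were tested, gave medians of 0.12 and 0.03 with 0 called. They ran from H2-T24 (-0.13) to H2-T23 (0.54) in the deletion and from H2-Q7 (-0.48) to H2-M3 (0.45) in the knock-in. The 14 constitutive proteasome subunits gave medians of 0.01 and 0.16 with 0 called. Psmb5, the subunit that Psmb8 replaces, was the highest in both genotypes, at 0.24 in deletion cortex and 0.35 in knock-in cortex (SE 0.10, adjusted p = 0.0969, Wald test with Benjamini-Hochberg adjustment), and Psma3 was the lowest at -0.10 and -0.02. Of 7 class II genes, 2 and 5 were tested and 0 called. Ciita, the class II transactivator, gave 0.51 and H2-DMa 0.10 in the deletion, and H2-Eb1 gave 0.01 and H2-DMb1 -0.48 in the knock-in.

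Most markers of macrophages, microglia, vascular and meningeal cells lay above the control in the deletion, as most members did, and some of them passed the same Wald test. All 7 border macrophage markers, with a summed mean count of 6939, lay above, with a median of 0.95, and Mrc1, Lyve1 and F13a1 rose. They ran from Stab1 (0.72) to Lyve1 (1.26). All 11 meningeal fibroblast markers lay above, with a median of 0.84, from Lum (0.54) to Aldh1a2 (1.13), and Col1a2, Foxc1, Slc6a13, Aldh1a2 and Fn1 rose. Of 11 tested endothelial markers, of 12 listed, 10 lay above, with a median of 0.53, from Slco1a4 (-0.12) to Vwf (1.13). Flt1 and Vwf rose, and Ly6a, with no adjusted p in either genotype, gave -0.03 (-0.67 in the knock-in). All 8 pericyte markers lay above, with a median of 0.42, from Notch3 (0.06) to Anpep (0.97), and Vtn and Anpep rose. Of 12 microglia markers, with a summed mean count of 5292, 10 lay above, with a median of 0.43, from P2ry12 (-0.13) to Tmem119 (0.62), and 0 were called.

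In the knock-in the same lists lay above the control by less, with 0 called in each. The medians were 0.45 for border macrophages, 0.46 for meningeal fibroblasts, 0.33 for endothelial cells, 0.29 for pericytes and 0.28 for microglia. Their extremes were Mrc1 (0.37) and Cd163 (0.61), Crabp2 (0.17) and Col3a1 (0.69), Ly6c1 (-0.30) and Vwf (0.51), Cspg4 (-0.04) and Anpep (0.52), and P2ry12 (-0.05) and Tmem119 (0.53). The part of these cells in the members' estimates was not tested, and in bulk tissue more cells of a type and more RNA per cell cannot be told apart.

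The labels call the cell type neural progenitors and the tissue cortex. Marker lists of both progenitors and neurons were present. Summed mean counts were 302502 for 8 genes of the projection neuron list, 80343 for 9 radial glia genes and 24961 for 5 intermediate progenitor genes. The projection neuron list includes Tubb3 (68675), Dcx (70873) and Map2 (69588), which are not particular to projection neurons. This list gave medians of 0.06 and 0.04, with Fezf2 lowest (-0.20) in the deletion and from Dcx (-0.17) to Neurod6 (0.17) in the knock-in. Radial glia gave medians of -0.15 and 0.25, from Fabp7 (-0.34) to Hopx (0.15) and from Sox2 (0.05) to Hopx (0.37). Intermediate progenitors gave -0.16 and 0.24, from Btg2 (-0.20) to Insm1 (-0.07) and from Insm1 (0.19) to Neurog2 (0.52). Choroid plexus markers gave -0.26 and 0.24, between Otx2 (-0.48 and 0.06) and Aqp1 (0.31 and 0.41). The median SE of these 7 genes was 1.29 in each genotype, so no direction can be read for them. Red cell markers gave -0.23 and 0.22, with Hba-a1 lowest (-0.42) in the deletion, and knock-in values from Bpgm (-0.17) to Hbb-y (2.41), and Bpgm fell in the deletion (-0.27, adjusted p = 0.0420, Wald test with Benjamini-Hochberg adjustment). Markers of lymphocytes and granulocytes had a summed mean count of 41.4 over 9 genes. In the deletion 7 of the 9 lay below the control, with a median of -0.82, and none had an adjusted p. In the knock-in 5 lay below and 3 above, with a median of -0.39, and S100a8 (-0.78) and S100a9 (-0.94) had an adjusted p there, with neither called.

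**Figure D5:**
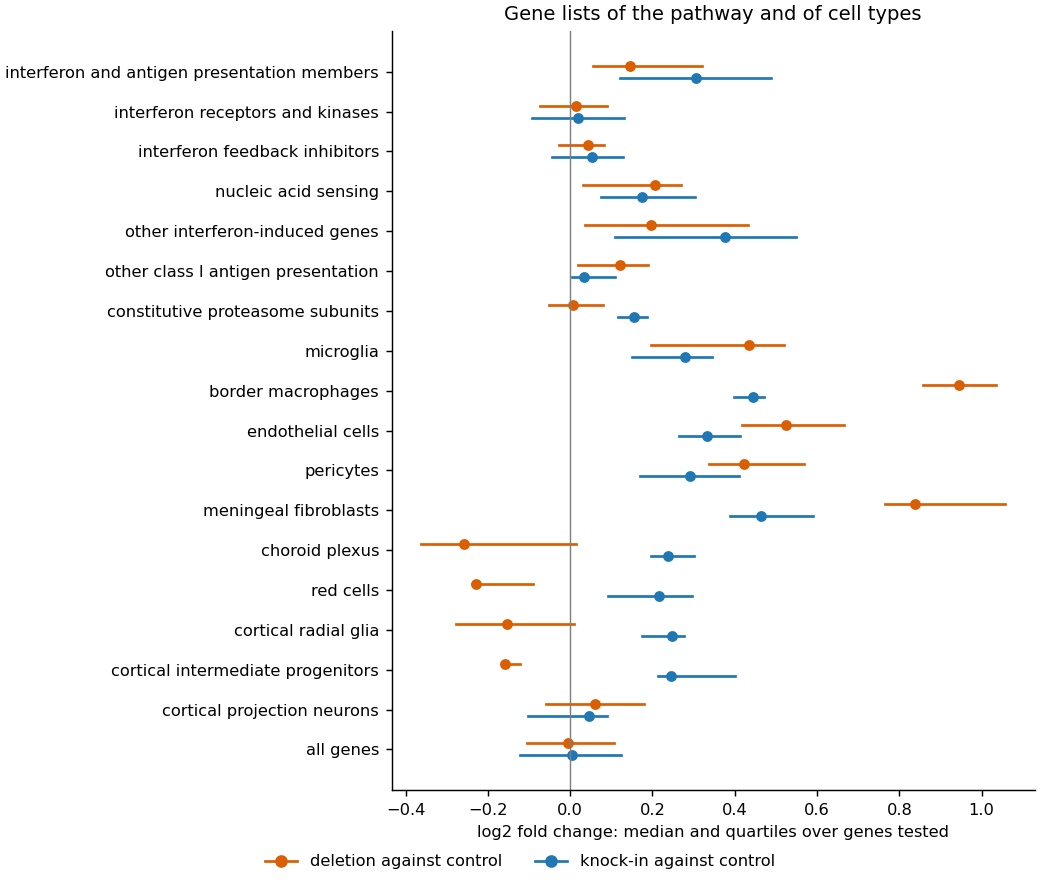
Median log2 fold change, with lines from the lower to the upper quartile, over the tested genes of each pathway and cell type list, by genotype. The members lie at 0.15 and 0.31, and the lists of border macrophages (0.95) and meningeal fibroblasts (0.84) lie highest in the deletion.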

How the data were processed

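The members and gene lists were chosen with earlier results of these data known. Per the labels' protocols, total RNA went into an mRNA capture kit. The submitters' processing notes list STAR 2.7.9a, Bowtie2 2.4.4 and cutadapt, and the genome builds mm9 and mm10, without roles. The sources used here do not give how reads were counted, with which annotation or whether by strand.

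The authors deposited, per gene, a log2 fold change and its SE, a Wald score (the statistic), a p-value and an adjusted p-value from DESeq2, per the file headers, and baseMean, a signal that is the authors' mean normalised count. The deposited baseMean was equal in both tables for all 39184 shared genes. The deposited columns headed FPKM were other than that unit. Within a relative tolerance of 1e-09, all 235530 values of the deletion table and all 242196 of the knock-in table equalled baseMean times successive draws from R's normal generator (mean 1, SD 0.1, seed 42), as did 354 of 354 and 390 of 390 in the shorter lists, and 0 did with seed 43. They were not used, so no spread between libraries and no depth per library could be computed.

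Deposited columns disagreed with each other in the deletion table for 22 log2 fold changes and 4 p-values, and in the knock-in table for 25 and 930. The main values were therefore the product of statistic and SE, a two-sided normal p and Benjamini-Hochberg adjustment over genes with a deposited adjusted p. The lowest mean count tested was 14.0 and 8.26. A change made alike to statistic and SE could not be detected. Each p-value sets an estimate against the SE of the authors' fit, which rests on 3 libraries per genotype. The difference of the comparisons used the root of the summed squared SEs, which is wide since they share controls. Every member was named, with genes past the threshold and the extremes of each other list; 2 genes chosen by these rules are not reported here. Positions and exon lengths came from GENCODE for GRCm38 and promoters from RefSeq. The adjustment was run on simulated statistics drawn independently per gene with the deposited SEs, and the motif search on a made sequence. Neither tests the authors' fit. The software was matplotlib 3.10.9, scipy 1.17.1, pandas 2.3.3 and numpy 2.4.6 under Python 3.11.15.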

Additional observations from a re-analysis of the deposited data

How the results depend on the processing

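No paired analysis was possible because no usable values per library were held, although the labels number the replicates, and leaving out each replicate was not run for the same reason. Under the alternatives of threshold, adjustment, minimum level, fold and deposited values, the members called stayed at 0, except for 2 (Ifit3 and Bst2) with the authors' deposited values of the knock-in. Genes called in the deletion were 185, and 308 at an adjusted p of 0.1, 75 at 0.01 and 115 with adjustment over every gene with a p. In the knock-in they were 29, and 58 at 0.1, 16 at 0.01 and 930 with the authors' deposited values. The pathway list call in the deletion (Slfn2) went from 1 to 0 at 0.01, with adjustment over every gene (adjusted p 0.0954, Wald test) and with a mean count of at least 50, which Slfn2 does not reach. In the knock-in 0 pathway genes became 1 (Psmb5) at 0.1 and 7 with the authors' deposited values. The difference of the comparisons called 1 gene, and 16 with a narrower SE for shared controls, of which 0 were members. The median over members ran from 0.15 to 0.25 in the deletion and from 0.25 to 0.31 in the knock-in over the alternatives, including 2 chosen after the data were seen (members with an adjusted p, and members with at most 10% shared exon words). Of 384 results for single genes under alternatives, 379 kept their direction and side of the threshold. Only the deposited values could change a direction, and a threshold of 0.01 or a minimum fold could not add a call. Much of that count was therefore fixed in advance. Within the 250 bases before the start, 9 members held ISRE and 5 held GAS letters. Low counts limit Mx1, Oas1a and Ifit1 most, which had no adjusted p in either genotype and so could not be called. By their SEs alone they would have needed 11.0-, 10.8- and 5.92-fold changes in the deletion.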
